A study of Homo sapiens with 20 samples.

Results

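A list of 10 long non-coding RNA genes held to be abundant was taken by symbol, and 9 of the 10 were found among the 24196 genes of the table: MALAT1, NEAT1, GAS5, H19, SNHG1, SNHG5, SNHG6, SNHG8 and SNHG16. TUG1 was not analysed here. The RNA came from orthotopic tumors of OVCAR8, a human high-grade serous ovarian cancer cell line, grown in immunodeficient NSG mice, with 4 tumors from mice given PBS as vehicle and 4 from mice given sodium gluconate. According to the methods, luciferase-tagged OVCAR8 lines were injected into the ovarian fat pad of mice 6 weeks old, and the efficacy study gave PBS or 1 mg/kg gluconate by intraperitoneal injection weekly for 35 days. In the study the orthotopic tumors treated in this way grew from the control line with the non-targeting guide sgNC, which both groups then share, and infected lines were isolated as single clones. The labels of the RNA samples name OVCAR8 only and give no age of the mice at collection. NSG mice lack T, B and NK cells. A set of 12 libraries of cultured OVCAR8 cells belongs to the same series and was not analysed here. The comparison addresses which transcripts of the tumor change with gluconate.

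Long non-coding RNAs are transcribed and often spliced like messenger RNAs but are not known to serve mainly as templates for protein. MALAT1 and NEAT1 are neighbouring nuclear RNAs, the first found in nuclear speckles beside splicing factors and the second the scaffold around which paraspeckles form. GAS5 and the SNHG genes are small nucleolar RNA (snoRNA) host genes, whose introns are processed into the guide RNAs that direct the modification of ribosomal RNA, while the spliced exons are exported and are commonly degraded by nonsense-mediated decay during translation. H19 is an imprinted RNA of fetal tissues that is expressed from the maternal chromosome and is reactivated in some tumors.

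The genes differ in how they are built, on GRCh38 with RefSeq annotation. MALAT1 (chr11:65497738-65506516, plus strand) and NEAT1 (chr11:65422798-65445540, plus strand) lie close together on chromosome 11, and the length behind their FPKM values, 8779 and 22743 bases, equals their whole RefSeq span. The spliced hosts are far shorter, with a length behind FPKM of 507 bases for SNHG5, 619 for SNHG8, 711 for SNHG6, 850 for GAS5, 1523 for SNHG1 and 2538 for SNHG16. In RefSeq the hosts span chr6:85677007-85678733 (SNHG5, minus strand), chr8:66921690-66925541 (SNHG6, minus), chr1:173863901-173869045 (GAS5, minus), chr4:118278762-118279823 (SNHG8, plus), chr11:62851978-62855885 (SNHG1, minus) and chr17:76557764-76565348 (SNHG16, plus). Genes on the opposite strand overlap GAS5 (GAS5-AS1 and ZBTB37, at most 0.445 FPKM) and SNHG6 (MCMDC2, at most 0.730 FPKM). RefSeq places 27 snoRNA genes within the 6 hosts, 24 of them C/D-box genes (SNORD), which guide methylation, and 2 H/ACA-box genes (SNORA), which guide pseudouridylation. GAS5 holds 11 of the 27, SNHG1 holds 9, SNHG16 holds 3, SNHG5 holds 2, and SNHG6 and SNHG8 hold 1 each. The snoRNAs themselves were not analysed here, so the values describe the host transcripts.

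The start of a host transcript is shown because many snoRNA hosts begin, as ribosomal protein genes do, with a terminal oligopyrimidine (TOP) tract, a C followed by an unbroken run of C and T that couples translation to growth signals. Each window is 30 bases on the transcribed strand, from RefSeq (GRCh38.p14), from 10 bases before the annotated start, which is the next base. Capitals mark the longest tract of a C followed by at least 4 further C or T. It had to begin within 10 bases of that start and was searched on the transcribed strand.

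SNHG5 (chr6:85678714-85678743, minus strand): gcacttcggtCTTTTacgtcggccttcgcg
SNHG8 (chr4:118278752-118278781, plus strand): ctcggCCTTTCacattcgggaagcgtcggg
SNHG16 (chr17:76557754-76557783, plus strand): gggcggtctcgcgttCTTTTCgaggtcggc
SNHG1 (chr11:62855866-62855895, minus strand): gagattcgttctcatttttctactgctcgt
GAS5 (chr1:173869026-173869055, minus strand): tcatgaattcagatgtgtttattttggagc

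In SNHG5 the tract begins at the annotated start itself. The tract was present in 3 of 5 hosts with a window (60%), in 12 of 20 other snoRNA hosts (60%) and in 10 of 12 other TOP transcripts. It was present in 38.4% of 27305 RefSeq genes and in 42.5% of the 9994 with a mean of at least 0.5 FPKM here. A match is a description of these letters and depends on where RefSeq places the start, and the windows of SNHG1 and GAS5 show only that the letters searched are not there.

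MALAT1 has an unusual end, shown here because the libraries were made from poly(A)-selected RNA. The nascent transcript is cut by RNase P just before a tRNA-like RNA, mascRNA, and the end that remains is a genome-encoded A-rich tract that pairs with upstream U-rich motifs into a triple helix. Capitals mark the U-rich run in the first window and the A run in the second, which ends on the first annotated base of mascRNA (GRCh38).

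MALAT1 U-rich motif (chr11:65506019-65506048, plus strand): gtcatgaaggTTTTTCTTTTcctgagaaaa
MALAT1 A run (chr11:65506088-65506117, plus strand): tttctagcttAAAAAAAAAAAAAgcaaaag

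The authors deposited FPKM, fragment counts corrected for gene length and for library depth, so levels of genes of different length can be set side by side. PBS replicate 4 rested on 3953206 fragments and the other 7 libraries on 39325749 to 46551535, with 15514 genes above 0 there against 19991 to 20251 in the others. The median of all 12486 genes tested lay 0.28 lower on the log2 scale in PBS replicate 4 than in the median of the other 7 libraries, so results are given with and without it. The keratins of simple epithelium marked the tumor cells (KRT8 846 FPKM and KRT18 695 FPKM on average) together with the ovarian transcription factor PAX8 (42.7 FPKM), whereas the epithelial cadherin CDH1 (0.0769 FPKM), KRT19 (0.0125 FPKM) and MUC16 (0.000332 FPKM) were at or near 0. The summed level of the 8 fibroblast markers came to 45.3 FPKM in PBS replicate 4, against 130 to 192 FPKM elsewhere, most of it COL1A1 (145 FPKM on average), with the fibroblast genes COL1A2 (0.0295 FPKM), DCN (0.0209 FPKM) and THY1 (0.0711 FPKM) at or near 0, while the 5 endothelial markers summed to at most 0.707 FPKM and the 2 hemoglobin genes to at most 0.340 FPKM in any library. The tumors grew in mice and the values are on the human genome, so these markers are no measure of the mouse host cells. The level of COL1A1 was therefore not read as a share of fibroblasts. In bulk tumor RNA, fewer cells of a type and less RNA per cell cannot be told apart.

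SNHG5 was by far the most abundant of the 9 genes. Its level was 913, 845, 1180 and 809 FPKM in PBS replicates 1 to 4 and 992, 951, 893 and 872 FPKM in gluconate replicates 1 to 4. On average (932 FPKM ± 116, SD, n = 8) it ranked 66th of all 24196 genes and first of 6196 genes that RefSeq classes as long non-coding. Its introns carry SNORD50A and SNORD50B. The range of the gluconate tumors lay inside that of the PBS tumors.

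On average SNHG6 and GAS5 followed as the next most abundant long non-coding genes and could not be ordered against each other. SNHG6, which hosts SNORD87, measured 295, 246, 345 and 219 FPKM in PBS replicates 1 to 4 and 318, 302, 297 and 297 FPKM in gluconate replicates 1 to 4. GAS5, named for its accumulation in growth-arrested cells, measured 261, 252, 344 and 227 FPKM in PBS replicates 1 to 4 and 292, 275, 290 and 272 FPKM in gluconate replicates 1 to 4. For both genes the 4 gluconate tumors sat close together and inside the span of the PBS tumors, with PBS replicate 3 highest and PBS replicate 4 lowest of all 8. SNHG6 was above GAS5 in 6 of 8 libraries, and their ranges overlapped. SNHG32, a host outside the list, averaged 261 FPKM and exceeded GAS5 in PBS replicate 1 only, at 267 against 261 FPKM.

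SNHG8, SNHG1 and SNHG16 formed a lower tier. SNHG8, host of SNORA24, measured 113, 102, 124 and 105 FPKM in PBS and 131, 116, 119 and 114 FPKM in gluconate tumors, in the order of the replicates. SNHG1, host of SNORD22 and SNORD25 to SNORD31, measured 79.0, 82.0, 108 and 63.4 FPKM in PBS and 94.8, 88.7, 79.2 and 96.0 FPKM in gluconate tumors. SNHG16, host of the SNORD1 genes, measured 79.0, 85.6, 105 and 75.4 FPKM in PBS and 89.7, 82.5, 79.1 and 82.8 FPKM in gluconate tumors. Within every library SNHG8 was the highest of these, although its range over all libraries overlapped that of SNHG1, and SNHG1 exceeded SNHG16 in 6 of 8 libraries. The groups overlapped for all 3 genes.

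The share of each host in the summed level of the 6 hosts was also followed from tumor to tumor. SNHG5 made up 53.1% ± 0.772 (SD, n = 4) of the summed FPKM of the 6 hosts under PBS and 51.3% ± 0.938 (SD, n = 4) under gluconate. The ranges were 52.40 to 54.0% and 50.3 to 52.37%. Their nearest ends, PBS replicate 2 and gluconate replicate 2, all but touch, so no separation of the groups is read from them. The ratio of GAS5 to SNHG5 was 0.289 ± 0.00774 (SD, n = 4) in PBS and 0.305 ± 0.0162 (SD, n = 4) in gluconate tumors. The summed level of the 6 hosts itself ran from 1499 FPKM in PBS replicate 4 to 2205 FPKM in PBS replicate 3, and the order of the PBS tumors was not the same for every host, since SNHG1 and SNHG16 were higher in replicate 2 than in replicate 1 and the other 4 hosts lower. Over the 8 libraries the share ran from 14.6 to 17.1% for SNHG6, 15.0 to 16.5% for GAS5, 5.61 to 7.01% for SNHG8, 4.23 to 5.54% for SNHG1 and 4.51 to 5.30% for SNHG16. These shares are a description and were not tested.

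MALAT1 and NEAT1 stood well below the hosts per base. MALAT1 measured 23.4, 21.1, 35.4 and 15.6 FPKM in PBS replicates 1 to 4 and 27.1, 39.7, 25.4 and 22.5 FPKM in gluconate replicates 1 to 4. NEAT1 measured 6.81, 6.87, 12.9 and 6.01 FPKM in PBS replicates 1 to 4 and 7.83, 9.69, 8.25 and 9.15 FPKM in gluconate replicates 1 to 4. Both nuclear RNAs were high in PBS replicate 3 and gluconate replicate 2 and lowest in PBS replicate 4. MALAT1 exceeded NEAT1 in every library, by 2.46 to 4.10 times in FPKM, with a mean ratio of 2.96 ± 0.373 (SD, n = 4) in PBS and 3.28 ± 0.689 (SD, n = 4) in gluconate tumors. In fragments the difference was smaller, at 0.949 to 1.58 fragments of MALAT1 for each fragment of NEAT1 and a mean of 1.20 ± 0.208 (SD, n = 8), with the lowest value in gluconate replicate 4 and more MALAT1 than NEAT1 fragments in all other libraries.

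The level of NEAT1 depends on the length used. NEAT1 makes a short polyadenylated and a long isoform from the same start, of which the long one is needed for paraspeckles, and the fragments of the 2 were not separated in the table. The FPKM values divide by 22743 bases, the length of the long isoform. If every fragment came from the 3524-base transcript of GENCODE 29, the same fragments would give 38.8 to 83.3 FPKM, 6.45 times as much, and NEAT1 would then exceed MALAT1. The comparison between groups is not touched by this choice, but the order of MALAT1 and NEAT1 is.

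H19 was not abundant in these tumors. It was listed at 0.0253, 0.0579, 0.0290 and 0 FPKM in PBS replicates 1 to 4 and at 0.0573, 0.0180, 0.0392 and 0.126 FPKM in gluconate replicates 1 to 4. These values stand for 3, 7, 3 and 0 fragments and for 6, 2, 4 and 14 fragments. A count of 0 in PBS replicate 4 allows up to 0.292 FPKM (3 fragments), more than any other library showed, so that library bears little on the difference. On average H19 ranked 2513th of 6196 long non-coding genes. H19 (chr11:1995176-2001266, minus strand) lies within the span of MRPL23, a mitochondrial ribosomal protein gene on the opposite strand at 7.69 to 12.9 FPKM, and without knowledge of the strand its few fragments cannot be told apart from that gene's.

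**Figure D1:**
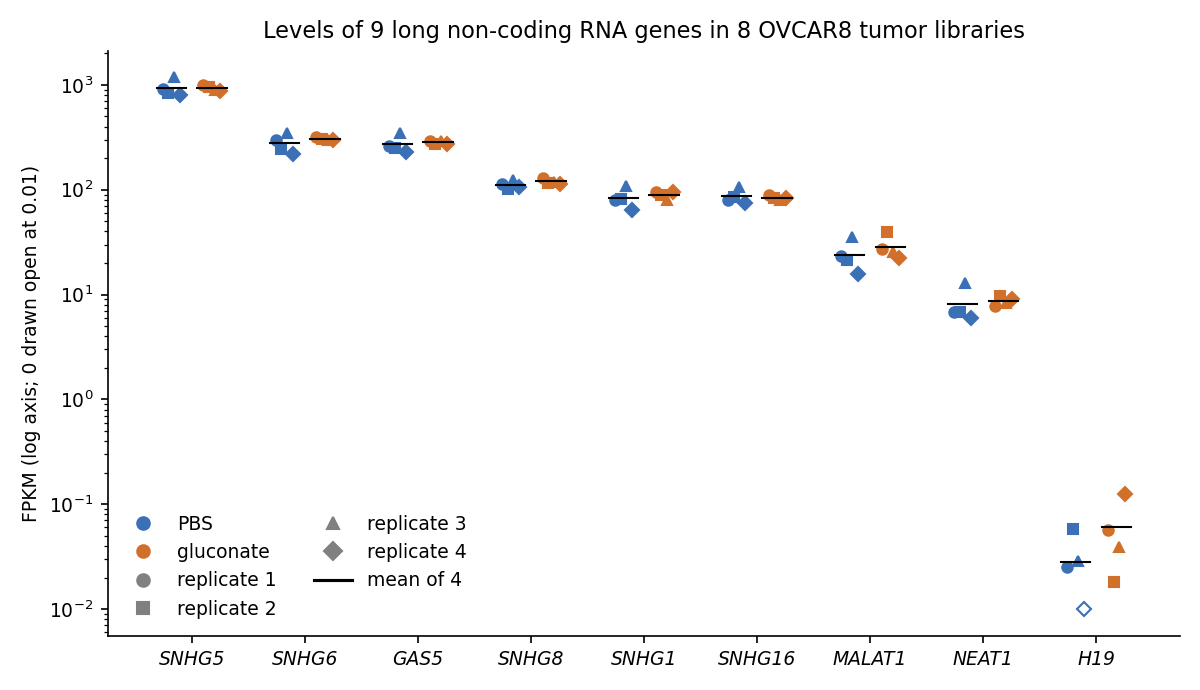
FPKM (log axis) of the 9 genes in each of the 4 PBS (blue) and 4 gluconate (orange) tumor libraries, with the marker shape giving the replicate and the bar the mean of 4. The hosts span 63.4 to 1180 FPKM, PBS replicate 3 (triangle) is the highest PBS library for every gene but H19, and H19 stays at or below 0.126 FPKM, with the 0 of PBS replicate 4 drawn open at 0.01.

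No difference between gluconate and PBS tumors passed limma's test for any of the long non-coding RNAs. Of the 9 genes, 8 passed the minimum mean of 0.5 FPKM and were tested on log2(FPKM + 0.1) along with all other genes. By limma with Benjamini-Hochberg adjustment, 0 of 8 had an adjusted p under 0.05, as had 0% of all 12486 genes tested, where the lowest adjusted p was 0.740. At an unadjusted p under 0.05 the count was 0 of 8 against 4.62% of all genes tested, and with limma's voom on the recovered fragments it was also 0 of 8 at either threshold. The PBS and gluconate values overlapped for all 8, while they did not overlap for 3.49% of all genes.

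MALAT1 had the largest log2 fold change of the 8 genes tested with limma. Its mean was 23.9 FPKM ± 8.34 (SD, n = 4) under PBS and 28.7 FPKM ± 7.61 (SD, n = 4) under gluconate. The log2 fold change was 0.29 with a standard error of 0.25 and a 95% interval of -0.26 to 0.85 (limma, unadjusted p = 0.266, adjusted p = 0.743), and gluconate replicate 2 alone stood above PBS replicate 3. In NEAT1 the means were 8.15 FPKM ± 3.20 (SD, n = 4) and 8.73 FPKM ± 0.845 (SD, n = 4), and the log2 fold change was 0.16 with a standard error of 0.22 and an interval of -0.32 to 0.65 (adjusted p = 0.807). In a two-sided exact permutation test on the 8 libraries, whose smallest possible value is 0.0286, p was 0.343 for MALAT1 and 0.600 for NEAT1.

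The hosts were estimated more closely. GAS5 had means of 271 FPKM ± 50.6 (SD, n = 4) under PBS and 282 FPKM ± 10.1 (SD, n = 4) under gluconate, with a log2 fold change of 0.08, a standard error of 0.12 and an interval of -0.18 to 0.34 (limma, adjusted p = 0.828). SNHG5 had a log2 fold change of -0.00135 with an interval of -0.26 to 0.26, so a change of more than about 1.20-fold in either direction lay outside it. The other hosts were 0.16 (SNHG6), 0.13 (SNHG1), 0.11 (SNHG8) and -0.04 (SNHG16) on the log2 scale, with standard errors of 0.08 to 0.15 and exact permutation p of 0.200 to 0.857. Across the 8 genes the intervals reached from -0.32 to 0.85, short of a 2-fold change in either direction. The median log2 fold change of the 8 genes was 0.12, beside 0.07 for all genes tested, and 6 of 8 were higher in gluconate tumors, beside 66.4% of all genes. With each library divided by its median ratio to the mean of all on the log scale (median-ratio scaling), these medians were 0.06 and 0.00522. Log2 fold changes were then 0.00942 for GAS5, 0.10 for NEAT1, 0.07 for SNHG1 and 0.05 for SNHG8. With limma's array weights, lowest for PBS replicate 4 (0.0935), that of SNHG1 was 0.04.

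For H19, below the minimum, the exact permutation test on log2(FPKM + 0.1) gave p = 0.286 with all libraries and p = 0.571 without PBS replicate 4, and the groups overlapped. At most 14 fragments of H19 were counted in a library.

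Single libraries moved these differences by more than 1.5 times. Without gluconate replicate 2 the log2 fold change of MALAT1 fell from 0.29 to 0.13. Without PBS replicate 1 or 2 that of NEAT1 was 0.10. Without gluconate replicate 1 that of SNHG8 was 0.07, as it was without PBS replicate 2, where that of GAS5 was 0.05. Without PBS replicate 4 the log2 fold changes fell to 0.11 for MALAT1, 0.04 for NEAT1, 0.01 for SNHG1, 0.05 for SNHG6 and -0.00376 for GAS5, the median of the 8 genes was 0.03 (beside -0.00294 for all genes tested), and 0 of 8 had an unadjusted p under 0.05 (6.21% of all genes). Without PBS replicate 3 the values rose, to 0.50 for MALAT1, 0.40 for NEAT1, 0.20 for GAS5, 0.27 for SNHG1 and 0.27 for SNHG6. Their unadjusted p in limma's fit across all genes were 0.0415, 0.00626, 0.0266, 0.0439 and 0.0276 in that order, and the exact permutation p were 0.0857, 0.0286, 0.0286, 0.0857 and 0.0286, where 0.0286 is the smallest that 3 against 4 allows. That made 5 of 8 genes higher at an unadjusted p under 0.05, beside 2.44% of all genes higher at the same threshold, and each of them had an adjusted p of 0.667. NEAT1, GAS5, SNHG6 and SNHG8 then did not overlap between groups (6.38% of all genes did not). PBS replicate 3 had the highest PBS value of all 8 genes and PBS replicate 4 the lowest of 7, so leaving out either moves the PBS mean in a known direction. With both left out, an alternative added after seeing the data, NEAT1 alone of the 8 had an unadjusted p under 0.05, against 4.16% of all genes (log2 fold change 0.34, limma unadjusted p = 0.00716, adjusted p = 1.00), and the 2 remaining PBS tumors allow no exact permutation p below 0.0667.

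**Figure D2:**
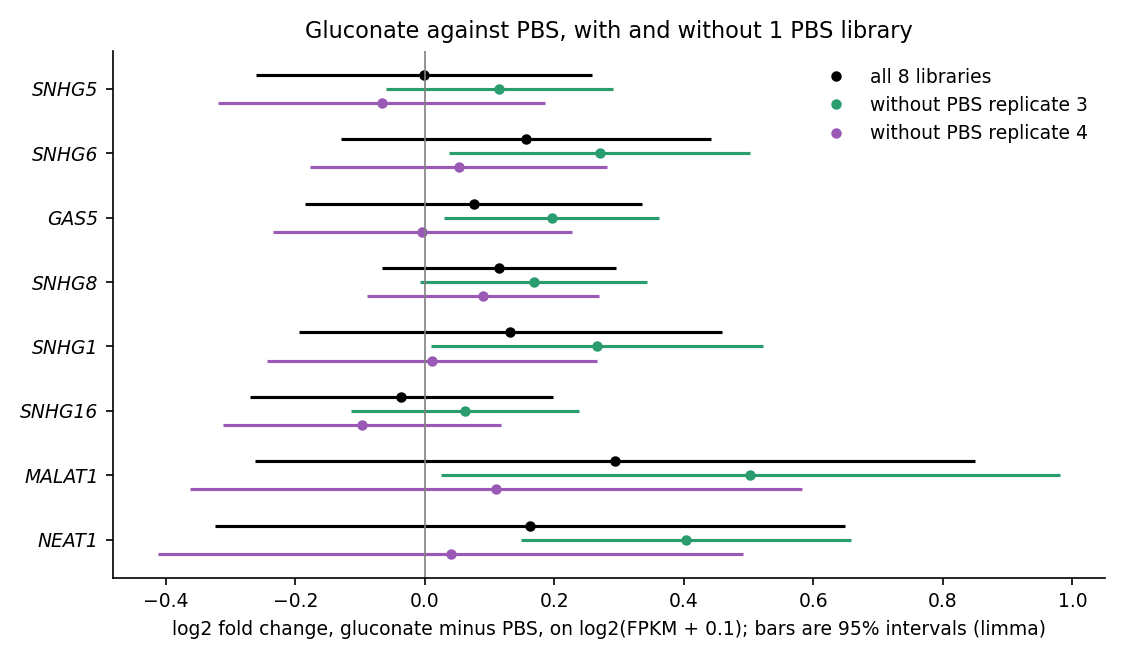
Log2 fold change of gluconate minus PBS on log2(FPKM + 0.1) for the 8 genes tested, as points with limma's 95% intervals, with all 8 libraries (black), without PBS replicate 3 (green) and without PBS replicate 4 (purple). Every black interval crosses 0, the green points lie to the right of the black ones and the purple points to their left, as for MALAT1 at 0.29, 0.50 and 0.11.

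PBS replicate 3 held more of these RNAs than any other PBS tumor. It was the highest of the 4 PBS libraries for 8 of 8 genes, against 28.7% of all genes tested. It was the highest of all 8 libraries for 6 of 8, against 19.1% of all genes. The same held for 10 of 22 other snoRNA hosts (45.5%). It also held for 29.4% of other known long non-coding RNAs and 29.4% of other TOP transcripts. Set against the median of the other 7 libraries, NEAT1 was 1.64-fold and MALAT1 1.51-fold higher, at the 97.8th and 96.9th percentile of all genes tested, SNHG5 was 1.32-fold and GAS5 1.26-fold higher, and SNHG8 was 1.08-fold higher. The median shift of the 8 genes was 0.37 on the log2 scale, beside 0.0000742 for all genes tested, and it was 0.37 after rescaling to a common sum and 0.39 after quantile normalization. PBS replicate 3 rested on 39895393 fragments, and the part of depth in these shifts was not tested. In this library the median shift was 0.14 for 22 other snoRNA hosts and 0.11 for 17 other known long non-coding RNAs. It was 0.08 for the remaining 721 genes classed as long non-coding, 0.12 for 17 other TOP transcripts and -0.05 for 14 imprinted genes. Its summed epithelial markers were the highest of all libraries (2245 FPKM, against 1522 to 1966 FPKM in gluconate tumors), and their part in these shifts was not tested.

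PBS replicate 4 was the lowest of all 8 libraries for 7 of 8 genes, SNHG8 being the exception, but so it was for 58.0% of all genes tested. The median shift of the 8 genes there was -0.36 on the log2 scale, beside -0.28 for all genes. MALAT1 was the lowest, at 0.614 times the median of the others (19.3rd percentile), with 541 fragments and a 95% Poisson interval of 14.3 to 17.0 FPKM, which covers counting error only and lies below all other libraries. The hosts SNHG16 and SNHG8 were at 0.911 and 0.903 times the median of the others, above the shift of most genes. The lists of proteins around these RNAs differed in the same library. The 16 paraspeckle proteins had a median shift of 0.43, with 11 highest and 3 lowest of all 8 libraries, where 13.7% of all genes tested were highest and 58.0% lowest. The 23 nuclear speckle and end-processing proteins tested had a median of -0.08, with 9 highest and 9 lowest. The median was 0.02 for the 17 snoRNP proteins and -0.32 for the 17 nonsense-mediated decay factors. The part of depth and of the lower COL1A1 of this library in these values was not tested.

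**Figure D3:**
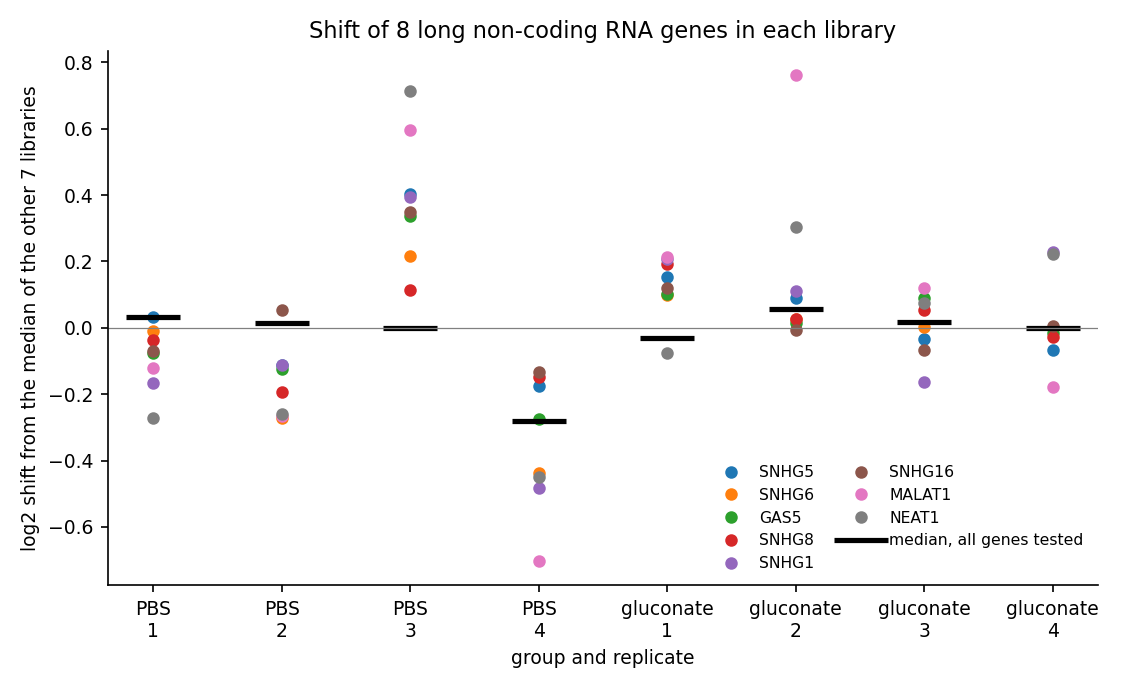
Log2 shift of each of the 8 genes (coloured points) in each library from the median of the other 7, with the black bar giving the median of all genes tested. All 8 points lie above the bar in PBS replicate 3, with NEAT1 at 0.71 and MALAT1 at 0.59, and MALAT1 also stands apart in gluconate replicate 2 at 0.76.

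**Figure D4:**
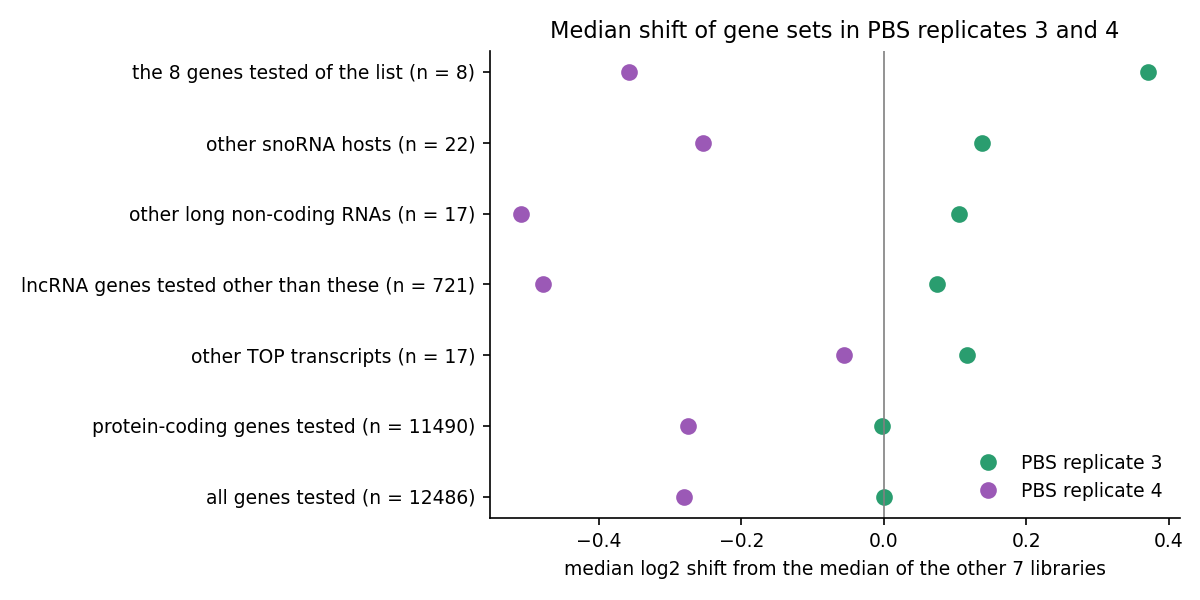
Median log2 shift from the median of the other 7 libraries in PBS replicate 3 (green) and PBS replicate 4 (purple), for the 8 long non-coding genes tested and for other gene sets, with the number of genes in each. In PBS replicate 3 the 8 genes lie at 0.37 and the other sets plotted between -0.00278 and 0.14, while in PBS replicate 4 they lie at -0.36, between other snoRNA hosts (-0.25) and other long non-coding genes (-0.48).

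The spread of the 8 genes among PBS tumors was narrower without PBS replicate 3. Their median coefficient of variation was then 7.23%, against 19.4% with all 4 PBS tumors and 17.7% without PBS replicate 4. For all genes tested it was 17.6%, 17.4% and 9.68% in that order. PBS replicate 3 had the highest PBS value of all 8 genes, so a narrower spread without it was in part given beforehand. With all 4 PBS tumors the coefficient of variation was smaller among gluconate than among PBS tumors for 8 of 8 genes (84.4% of all genes tested), for example 3.31% against 20.1% for SNHG6, 3.58% against 18.7% for GAS5 and 9.68% against 39.2% for NEAT1. Without PBS replicate 4 it was smaller for 8 of 8 genes (58.5% of all genes). Without PBS replicate 3 it was smaller for 5 of 8 (80.9% of all genes), and NEAT1 (7.37% among PBS tumors), SNHG8 (5.69% against 6.09%) and MALAT1 (20.0% against 26.5%) then varied less under PBS. SNHG6 and GAS5 stayed wider under PBS, at 15.2% and 7.10%. MALAT1 was the one of the 8 with a wide spread also under gluconate, with 39.7 FPKM in replicate 2 against 22.5 to 27.1 FPKM in the others. These spreads are a description and were not tested.

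By likeness of profile, the root-mean-square difference of centred log2(FPKM + 0.1) over the 8 libraries was smallest for MALAT1 with COPG2IT1 (0.11), TMCO6 (0.13) and CAMSAP1-DT (0.14). NEAT1 lay closest to PWAR6 (0.08), a non-coding RNA of the Prader-Willi region, then to KIFC2 (0.08), a kinesin, and SCD (0.10), the stearoyl-CoA desaturase. GAS5 lay closest to ATOX1, a copper chaperone, to S100A13 and to ANKZF1 (0.06 each). H19, at a few fragments a library, lay closest to RNF144B (0.11), IGFBP4 (0.13) and SLPI (0.14). These are descriptions over 8 libraries, in which every gene carries the same difference in depth and the same groups.

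Of the 23 other snoRNA hosts 22 were tested, 17 of them higher under gluconate and 5 lower (66.4% of all genes were higher). Their median log2 fold change was 0.10 beside 0.07 for all genes, 0.06 without PBS replicate 4 and 0.16 without PBS replicate 3, and 2 were higher and 0 lower at an unadjusted p under 0.05, against 3.13% and 1.49% of all genes. The first was SNHG18, at 3.14, 3.62, 3.28 and 2.72 FPKM in PBS and 3.65, 4.10, 4.03 and 3.91 FPKM in gluconate tumors, which did not overlap (log2 fold change 0.30, standard error 0.12, limma unadjusted p = 0.0304, adjusted p = 0.740). The second was ZFAS1, at 184 FPKM ± 20.3 (SD, n = 4) under PBS and 213 FPKM ± 13.7 (SD, n = 4) under gluconate, with overlap (log2 fold change 0.21, limma unadjusted p = 0.0369), which missed the threshold without PBS replicate 4 (unadjusted p = 0.0550). SNHG32, the most abundant of the list, had a mean of 261 FPKM and a log2 fold change of 0.13 (limma unadjusted p = 0.171). No gene of the list had an adjusted p under 0.05.

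Among 27 other known long non-coding RNAs, 25 were in the table and 17 were tested, 11 of them higher and 6 lower, beside 66.4% of all genes higher. Their median of 0.12 was 0.03 without PBS replicate 4, 0.08 without gluconate replicate 2, 0.22 without PBS replicate 3 and -0.04 with quantile normalization. CRNDE, a long non-coding RNA high in many tumors, was the 1 gene at an unadjusted p under 0.05, where 3.13% of all genes were higher, at 6.23 FPKM ± 2.07 (SD, n = 4) under PBS and 9.01 FPKM ± 1.85 (SD, n = 4) under gluconate (log2 fold change 0.57, limma unadjusted p = 0.0440, adjusted p = 0.740), and it missed the threshold without PBS replicate 4 (unadjusted p = 0.0674). NORAD, a cytoplasmic RNA that binds Pumilio proteins, was the most abundant at 79.9 FPKM on average and had a log2 fold change of 0.12.

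The genes for proteins that work with MALAT1 and NEAT1 had medians below 0. All 16 paraspeckle protein genes were tested, 4 higher and 12 lower under gluconate, with a median log2 fold change of -0.18 and 0 at an unadjusted p under 0.05, beside 66.4% of all genes higher and 4.62% at that threshold. The median was -0.08 without PBS replicate 4, beside -0.00294 for all genes tested, whose median was 0.07 with it. In that library the paraspeckle genes had a median shift of 0.43 and all genes tested one of -0.28. HNRNPA1, the most abundant, was 544 FPKM ± 42.6 (SD, n = 4) under PBS and 482 FPKM ± 36.7 (SD, n = 4) under gluconate (limma unadjusted p = 0.0596). Of 25 nuclear speckle and MALAT1 end-processing genes 23 were tested, with a median of -0.03, and 2 were lower at an unadjusted p under 0.05, beside 1.49% of all genes lower. The median of the list was -0.00619 without gluconate replicate 3, -0.0169 without PBS replicate 2, -0.0541 without gluconate replicate 2 and -0.0611 without PBS replicate 3. Leaving out 1 library moved the count at an unadjusted p under 0.05, over both directions, from 0 (without gluconate replicate 3) to 5 (without PBS replicate 1). The 2 genes were SRSF11, a splicing factor (log2 fold change -0.25, limma unadjusted p = 0.0252), and POP1, a protein of the RNase P complex that cuts the MALAT1 end, whose groups did not overlap (4.73 FPKM ± 0.417 in PBS and 3.81 FPKM ± 0.563 in gluconate tumors, SD, n = 4, log2 fold change -0.31, limma unadjusted p = 0.0433). SRSF2, the most abundant, measured 259 FPKM in PBS replicate 4, 104 to 113 FPKM in the other PBS tumors and 89.0 to 109 FPKM under gluconate.

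The lists of nonsense-mediated decay factors, snoRNP proteins and other TOP transcripts also had medians below 0. With median-ratio scaling these medians were -0.100, -0.146 and -0.0966 in that order, beside 0.00522 for all genes tested. All 17 nonsense-mediated decay factors were tested, 7 higher and 10 lower (66.4% of all genes were higher), with a median of -0.03 that ran from -0.0591 (without PBS replicate 4) to 0.00702 (without PBS replicate 2) when 1 library was left out, and was above 0 also without PBS replicate 3 or gluconate replicate 4. Of these 1, SMG6, an endonuclease of the pathway, was lower at an unadjusted p under 0.05, beside 1.49% of all genes (log2 fold change -0.28, limma unadjusted p = 0.0499, and 0.0640 without PBS replicate 4). MAGOH, an exon junction protein and the most abundant, had a log2 fold change of -0.05. Of 17 snoRNP proteins and assembly factors 4 were higher and 13 lower, beside the same 66.4% of all genes higher, with a median of -0.08 that was -0.0490 without PBS replicate 2, -0.0412 without PBS replicate 3 and -0.0494 without gluconate replicate 4. NOP56, a core protein of C/D-box snoRNPs, was the 1 gene lower at an unadjusted p under 0.05 (1.49% of all genes were), at 173 FPKM ± 15.3 (SD, n = 4) under PBS and 153 FPKM ± 5.56 (SD, n = 4) under gluconate (log2 fold change -0.17, limma unadjusted p = 0.0474, and 0.0527 without PBS replicate 4), and fibrillarin (FBL), the methyltransferase of the same particle and the most abundant, had a log2 fold change of -0.15 (unadjusted p = 0.0567). Among 17 other TOP transcripts 5 were higher and 12 lower, with a median of -0.03 and 0 at an unadjusted p under 0.05, where all genes had 66.4% higher and 4.62% at that threshold. That median ran from -0.0703 without gluconate replicate 1 to -0.00380 without PBS replicate 3, and was -0.0602 without PBS replicate 2 and -0.0583 without PBS replicate 4. EEF1A1, the most abundant, had a log2 fold change of -0.12.

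Of 19 genes of the H19 locus and other imprinted genes, 17 were in the table and 14 were tested, 8 higher and 6 lower beside 66.4% of all genes higher, with a median of 0.18 (0.03 without PBS replicate 4). IGF2, the paternally expressed neighbour of H19, named here after its values were seen, was measured at 8.19 FPKM on average against 0.0441 FPKM for H19. GRB10, an imprinted adaptor of insulin receptors, was the 1 gene higher at an unadjusted p under 0.05 (3.13% of all genes were), at 2.08 FPKM ± 0.447 (SD, n = 4) under PBS and 2.99 FPKM ± 0.689 (SD, n = 4) under gluconate (log2 fold change 0.50, limma unadjusted p = 0.0343, and 0.0296 without PBS replicate 4), with overlap. NDN, the most abundant of the list at 41.5 FPKM on average, had a log2 fold change of 0.29 (unadjusted p = 0.115). Across all these lists no gene had an adjusted p under 0.05.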

How the data were processed

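The members and gene lists were chosen with earlier results of these data known. Tumor RNA was poly(A)-selected and sequenced as paired reads of 150 bases, and the authors deposited FPKM values per gene symbol on GRCh38. The aligner, the counting tool, its use of strand and the annotation are not given in the sources used here. The columns carry C and T, which were read as PBS and gluconate from the axis of the study's volcano plot. The study describes that plot as one of OVCAR8 cells, whereas the sample titles name orthotopic tumors, and the titles were followed here. No columns of the authors' own comparisons were used.

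Deposited FPKM values fell on the steps of whole fragments (within 0.0001 of one) for 100% of values, which gave the gene length and the fragments of each library. Fragment intervals are 95% Poisson intervals and, like the limit of 3 fragments for a count of 0, cover counting error only. Differences were tested with limma 3.58.1 in R 4.3.3 (lmFit, eBayes with trend, two-sided) on log2(FPKM + 0.1), over 12486 genes with a mean of at least 0.5 FPKM, with Benjamini-Hochberg adjustment over all of them. A fold change on this scale understates that of low genes. The labels do not say that replicates are separate animals beyond calling them tumors, so p measures the spread between these samples. Single genes were compared with a two-sided exact permutation test. limma's voom on the recovered fragments was an alternative and called 0 genes at an adjusted p under 0.05 and 593 at an unadjusted one. The tests were run on simulated data first.

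Named genes were all members, the 3 tested genes nearest in profile to MALAT1, NEAT1, GAS5 and H19, and from each list the genes at an unadjusted p under 0.05 (at most 3 in each direction) and the most abundant. Marker genes are named from the marker lists. Sequences, snoRNAs and spans come from RefSeq and transcript lengths from GENCODE 29. Python 3.11.15, numpy, scipy and pandas were used, with matplotlib for figures.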

Additional observations from a re-analysis of the deposited data

Results flagged for a closer look

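NEAT1 in PBS replicate 3 was set apart by its gap from the rest of its group. Its level of 12.9 FPKM compared with 6.01 to 6.87 FPKM in the other 3 PBS tumors, a gap of 0.875 of the range of the 4, above Dixon's 95% critical value for 4 samples. It was the 1 value of this kind among 18 groups of 4 examined, where chance gives about 0.9.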

How the results depend on the processing

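Under the alternatives tried, 0 of 8 genes had an adjusted p under 0.05, and 152 of 160 single values kept the direction of the log2 fold change. The 8 that reversed were all close to 0. SNHG5 (-0.00135) became 0.0660 with quantile normalization and 0.0750 without PBS replicates 3 and 4, and ran from -0.0667 to 0.115 when 1 library was left out, above 0 without PBS replicate 3, gluconate replicate 3 or gluconate replicate 4. GAS5 (0.08) ran from -0.00376 without PBS replicate 4 to 0.196 without PBS replicate 3. When 1 library was left out, SNHG16 (-0.04) ran from -0.0967 without PBS replicate 4 to 0.0624 without PBS replicate 3. It was 0.0211 without PBS replicates 3 and 4 and -0.102 with median-ratio scaling. The number of these genes at an unadjusted p under 0.05 ranged from 0 to 5 when 1 library was left out, with 5 without PBS replicate 3, and was 1 without PBS replicates 3 and 4, an alternative chosen after seeing the data. The same count over all genes was 577, with 267 (without gluconate replicate 4) to 1216 (without PBS replicate 1) when 1 library was left out, 288 without gluconate replicate 3, 874 without PBS replicate 2 and 1028 with no filter on low values. With the replicate number as a block the count over all genes was 470 and that of the 8 genes 0. The numbers share no stated source, and same-numbered libraries deviated with correlations of -0.178, 0.0836, 0.166 and -0.0575, so they were not read as pairs, nor did every library correlate best with its own number. The medians of related lists also changed sign, that of other known long non-coding RNAs (0.12) to -0.0436 with quantile normalization and that of nonsense-mediated decay factors (-0.03) to at most 0.00702 when 1 library was left out, and that of imprinted genes (0.18) came to -9.01e-05 without PBS replicates 3 and 4. Leaving out 1 library moved the number of genes at an unadjusted p under 0.05 from 0 to 5 for nuclear speckle and end-processing proteins and from 0 to 2 for each of the other related lists. Values of H19 rest on at most 14 fragments in a library, and PBS replicate 4 on 3953206 fragments in all.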
